A study of Mus musculus with 10 samples.

Results

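The nuclear-encoded subunits of the mitochondrial respiratory chain and of ATP synthase were followed in mouse distal colorectum. Members were the genes with a probe set whose only platform symbol starts with Ndufa, Ndufb, Ndufc, Ndufs, Ndufv, Sdha, Sdhb, Sdhc, Sdhd, Uqcr, Cox4i, Cox5, Cox6, Cox7, Cox8 or Atp5, and the brightest probe set by its mean over all arrays stood for each gene. This rule found 94 of the 18193 genes with a probe set of their own, on 185 of 45101 probe sets. They are 34 genes of complex I, 4 of complex II, 8 of complex III, 19 of complex IV and 17 of complex V (ATP synthase). The other 12 are assembly factors (Ndufaf and Sdhaf genes), which share the prefixes but are not subunits and are described apart. Ndufa4 and its paralogue Ndufa4l2 were counted with complex IV, because the NDUFA4 protein is now placed there despite its name.

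Total RNA of distal colorectum from C57BL/6J mice was measured on 10 Affymetrix arrays, 1 per sample, with 2 of unirradiated Pdgfc+/+ mice (wild type), 2 of unirradiated Pdgfc-/- mice (knockout), and 3 each of irradiated mice of the same genotypes. Irradiated mice of either genotype had received 25 Gy of γ-rays locally at 2.14 Gy/min, and tissue was taken 8 weeks later, about 1 cm above the anus. Pdgfc encodes a secreted growth factor that acts through the PDGF receptor alpha of mesenchymal cells. The labels call the replicates biological but give neither age nor sex nor how the allele was made.

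The respiratory chain sits in the inner mitochondrial membrane. Complexes I and II take electrons from NADH and succinate, complex III passes them to cytochrome c, complex IV hands them to oxygen, and ATP synthase uses the resulting proton gradient to make ATP. Most subunits are made from nuclear genes, and several of complex IV come in a ubiquitous form and a form found in muscle, testis or lung. Colonocytes are rich in mitochondria and burn butyrate from the gut lumen.

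Some promoters of these genes are shown first, because many respiratory genes are known targets of the transcription factor NRF1. RefSeq windows on GRCm38.p6, from 250 bases before to 50 after a start, were found for 78 of the 94 genes. The NRF1 letters GCGCANGCG, on either strand, occurred in 22 of these 78 (28.2%), against 9.63% of 17492 protein-coding genes. Other motifs were spelled out likewise on both strands: GABPA as CCGGAAGT (6.41% of members, 5.69% of protein-coding genes), YY1 as ATGGCGGC (8.97% and 3.5%), the hypoxia response core ACGTGC (6.41% and 7.4%) and the TATA box TATAAA (11.5% and 14.8%). Matches on the 2 strands can overlap, as in Cox6a1 and Ndufaf4, and each motif was counted on its own. The 250 bases before the start are printed below, 5′ to 3′ on the strand of the gene, with NRF1 matches in capitals, for a subunit of complex II and a ubiquitous one of complex IV that hold several matches, for an assembly factor that fell in irradiated wild type, and for Ndufa4 and Cox8b, which rose there and hold no match in the window.
Sdha (chr13:74350241-74350490, minus strand): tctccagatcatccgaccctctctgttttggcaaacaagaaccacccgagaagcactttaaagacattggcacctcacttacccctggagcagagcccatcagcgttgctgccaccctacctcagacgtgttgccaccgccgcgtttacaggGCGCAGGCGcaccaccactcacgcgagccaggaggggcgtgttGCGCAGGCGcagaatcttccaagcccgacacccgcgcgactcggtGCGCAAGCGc
Cox6a1 (chr5:115348959-115349208, minus strand): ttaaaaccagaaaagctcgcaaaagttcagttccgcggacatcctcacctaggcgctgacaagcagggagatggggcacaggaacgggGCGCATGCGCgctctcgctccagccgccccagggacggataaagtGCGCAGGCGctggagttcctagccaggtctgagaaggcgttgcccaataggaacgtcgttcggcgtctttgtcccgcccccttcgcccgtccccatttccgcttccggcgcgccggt
Ndufaf4 (chr4:24897833-24898082, plus strand): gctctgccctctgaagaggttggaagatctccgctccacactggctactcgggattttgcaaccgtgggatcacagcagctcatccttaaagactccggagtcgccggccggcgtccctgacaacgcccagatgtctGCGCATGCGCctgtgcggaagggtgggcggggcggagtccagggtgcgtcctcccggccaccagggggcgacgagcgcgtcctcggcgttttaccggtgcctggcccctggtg
Ndufa4 (chr6:11907451-11907700, minus strand): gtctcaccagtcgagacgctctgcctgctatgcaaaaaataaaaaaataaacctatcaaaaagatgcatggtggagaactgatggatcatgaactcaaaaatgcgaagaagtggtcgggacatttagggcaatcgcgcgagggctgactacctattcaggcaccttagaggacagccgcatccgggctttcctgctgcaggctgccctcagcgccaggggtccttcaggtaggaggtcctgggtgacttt
Cox8b (chr7:140900447-140900696, minus strand): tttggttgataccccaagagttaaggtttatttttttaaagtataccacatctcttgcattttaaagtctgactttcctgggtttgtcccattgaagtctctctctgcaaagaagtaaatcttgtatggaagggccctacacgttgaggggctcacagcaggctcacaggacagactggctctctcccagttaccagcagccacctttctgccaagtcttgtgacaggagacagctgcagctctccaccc

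Of the subunits that fell in irradiated wild type and have a window, 2 of 5 (Ndufb10 and Uqcrc1) hold the NRF1 letters. The median log2 change with irradiation in wild type was -0.26 over the 21 tested members with the letters and -0.25 over the 55 without them. In knockout these medians were -0.04 and -0.09. A match is a description of the sequence and not a measured site.

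Signals are MAS5 values on the log2 scale, and a gene was tested if it lay above the median of its array on at least 2 arrays. This held for 92 members, all except Cox7b2 and Ndufb4, and 87 of the 92 lay above the median on all 10 arrays (94.6%, against 76.3% of the 12568 genes tested). The members were also less variable than most genes. Their median SD within a group was 0.20, against 0.26 over all genes tested. Ndufb4, an accessory subunit of complex I, ran from 5.23 to 6.66 over the arrays, and Cox7b2, a testis form, from 0.30 to 4.64. Of the 94 probe sets, 13 end in _s_at and 5 in _x_at, types that can bind transcripts of related genes or pseudogenes, and Cox5b and Ndufa12 are among the latter.

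Pdgfc, the deleted gene, lay at 5.62 to 6.42 in unirradiated knockout against 7.01 to 7.50 in wild type, and at 6.26 to 7.15 against 8.56 to 8.75 after irradiation, though where its probes lie relative to the deletion is not given. Irradiated and unirradiated arrays differed in their makeup. The mean signal of 14 absorptive colonocyte markers was 13.31 to 13.75 on the 4 unirradiated arrays and 11.82 to 12.81 on the 6 irradiated ones, with 8 of 14 lower in wild type and 7 of 14 in knockout. Other cell types went the opposite way. The mean of 10 squamous epithelium markers was 4.47 to 5.37 without and 9.24 to 12.69 with irradiation, with 7 of 10 higher in wild type and all 10 in knockout. That mean lay below the array median (6.64 to 7.01) on all 4 unirradiated arrays. Such markers may have been tested only through irradiated arrays, so their counts are no separate support for a rise. The 9 macrophage markers, all higher in both genotypes, had a mean of 6.91 to 8.34 without and 10.06 to 11.12 with irradiation. The 7 fibroblast markers were at 10.10 to 10.24 and then at 11.75 to 12.26 (7 higher in wild type, 6 in knockout), and the 7 adipocyte markers at 5.98 to 8.01 and then at 8.78 to 11.88 (5 higher in each). The 8 smooth muscle markers overlapped, at 12.75 to 13.16 and 12.69 to 13.41, and none passed in either genotype. Over all genes, 8.34% were called lower and 15.8% higher in wild type, and 9.5% and 14% in knockout. The mean of 14 striated muscle markers was 4.50 to 4.73 in unirradiated wild type, 8.68 to 9.12 in unirradiated knockout, 5.09 to 11.72 in irradiated wild type and 10.61 to 12.55 in irradiated knockout. Xist, expressed only in females, was at 13.48 to 14.18 on all 3 irradiated wild-type arrays and on replicate 1 of irradiated knockout, and at 6.19 to 7.27 on the other 6 arrays. Sex and irradiation therefore cannot be told apart in wild type. The 3′ minus 5′ difference of Gapdh, a measure of RNA integrity, was -0.54 to -0.35 with and -0.32 to 0.02 without irradiation, while that of Actb overlapped, at 0.44 to 0.58 with and 0.35 to 0.66 without. In bulk tissue, fewer cells of a type and less RNA per cell cannot be told apart. What part these shifts had in the values below was not tested, except where a value is given beside them.

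The first question was what irradiation changed in wild type. Most subunits had a lower mean signal 8 weeks after irradiation, by a small amount, while a few genes of complex IV rose strongly. Of 92 tested members, 8 fell (8.70%, against a background of 8.34% of all genes) and 5 rose (5.43%, against 15.8%), so 13 changed where 24.1% of all genes did. The share that fell was thus near the background. The median change was -0.26 on the log2 scale over the members and 0.07 over all genes tested. Of the 92 members, 72 had a change below 0 (78.3%, against 44.7% of all genes). All 3 irradiated arrays lay below both unirradiated ones for 49 members (53.3%, against 22.8% of all genes) and above them for 9 (9.78%, against 30.8%). With each array centred on its median, the median of all genes moved from 0.07 to -0.27 and 28 members were called, 25 lower and 3 higher; centring shifts all genes of an array alike. The member median minus that of all genes was -0.33 as deposited and -0.13 after quantile normalization. The member median itself moved from -0.26 to -0.16 without replicate 1 of unirradiated wild type and to -0.15 after quantile normalization. With the Xist pattern as a covariate it was -0.14. In wild type that pattern followed irradiation exactly. The covariate was therefore estimated only from replicate 1 of irradiated knockout against the rest of its group. This fit cannot separate sex from irradiation in wild type, and no conclusion is drawn from calls lost in it. None of the 13 passed with the Xist pattern as a covariate, and without replicate 1 of unirradiated wild type only 3 rises did; without replicate 2 or 3 of irradiated wild type, 5 or 8 members passed. Over the 10 fits that each left out 1 array, the call held in all for Ndufa4, Ndufa4l2 and Cox6b2, in 9 for Ndufb8 and Ndufs7, in 7 for Ndufb10, in 6 for Sdhc and Ndufaf4, in 5 for Uqcrc1 and Sdhaf2, and in only 2 for Ndufv1, Cox4i1 and Cox8b.

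**Figure D1:**
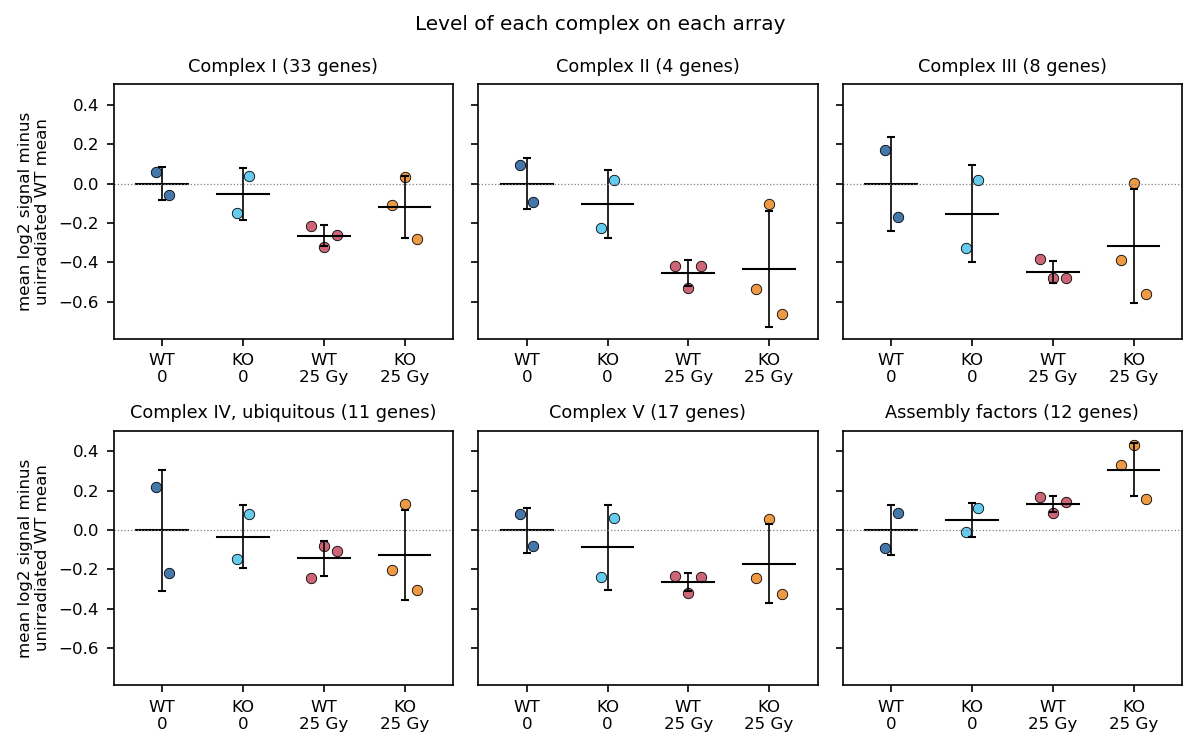
Mean log2 signal of the tested genes of each complex on each array, minus the mean of the 2 unirradiated wild-type arrays (y axis), by genotype and dose (x axis: WT wild type, KO knockout, 0 or 25 Gy). Points are arrays, bars the group mean and whiskers the SD (n = 2 without and 3 with irradiation). The irradiated wild-type points lie below both unirradiated wild-type points in complexes I, II, III and V. The panel of ubiquitous complex IV genes leaves out 7 tested tissue-restricted isoforms and includes Ndufa4, which rose.

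The shift in wild type is given by complex, and differences between complexes were not tested. The mean of the tested genes went from 12.55 to 12.29 in complex I, from 12.78 to 12.33 in complex II, from 13.42 to 12.98 in complex III and from 13.64 to 13.37 in complex V, and the arrays of the 2 conditions did not overlap in any of these. In the ubiquitous genes of complex IV it went from 13.59 to 13.45. The unirradiated arrays were at 13.37 and 13.81 and the irradiated ones at 13.34 to 13.51, which overlap. This mean includes Ndufa4, which rose by 1.00. The median change of these genes was -0.30, against -0.26 in complex I and -0.26 in complex V. The 7 tested isoforms restricted to certain tissues (Ndufa4l2, Cox4i2, Cox6a2, Cox6b2, Cox7a1, Cox8b and Cox8c) were set aside. The mean over the other 73 tested subunits was 13.17 and 12.97 in unirradiated wild type and 12.82, 12.76 and 12.80 in irradiated wild type, so the irradiated arrays lay lower and close together. It was 12.88 and 13.12 in unirradiated knockout and 12.86, 13.11 and 12.72 in irradiated knockout, where the groups overlapped. Replicate 2 of irradiated knockout stood apart: 63 of the 73 subunits were highest there within their group, and this array also had the highest colonocyte marker mean of the irradiated arrays (12.81, against 11.82 and 11.89 on the other knockout arrays). Replicate 1 of unirradiated wild type was the higher of its pair for 60 of the 73.

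Complex I, the NADH dehydrogenase, had 4 of 33 tested genes lower in irradiated wild type (12.1%, against 8.34% of all genes). None was higher, against 15.8% of all genes. Its median change was -0.26, with 29 of 33 below 0 (87.9%, against 44.7% of all genes). Ndufb8, an accessory subunit of the membrane arm, was at 13.46 and 13.10 without and at 12.62, 12.68 and 12.25 with irradiation. It fell by 0.76 ± 0.19 (SE) on the log2 scale, a 1.70-fold lower signal (limma adjusted p = 0.017). Ndufb10, also of the membrane arm, was at 12.20 and 12.22 and then at 11.78, 11.48 and 11.49. Its fall of 0.63 ± 0.15 was larger than the spread of either group (adjusted p = 0.0141). Ndufs7 carries the iron-sulfur cluster that hands electrons to ubiquinone. Its signal was 12.25 and 12.06 without and 11.68, 11.48 and 11.55 with irradiation, a fall of 0.58 ± 0.13 (adjusted p = 0.011). Ndufv1, the subunit that binds NADH, went from 12.62 and 12.48 to 12.30, 12.09 and 11.96 (adjusted p = 0.0441). In all 4 genes the wild-type arrays of the 2 conditions did not overlap. The irradiated arrays lay below in this way for 20 of the 33 genes (60.6%, against 22.8% of all genes). Tested among all probe sets, dimmer probe sets of Ndufb8 (-0.67), Ndufs7 (-0.39) and Ndufv1 (-0.36 and -0.41) did not pass.

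The other core subunits of complex I did not pass the test. Ndufs1, its large iron-sulfur subunit, was at 11.98 and 11.97 and then at 11.62, 11.51 and 11.62, a change of -0.39 ± 0.15 with an adjusted p of 0.0933. Ndufab1, the mitochondrial acyl carrier protein, had -0.34 ± 0.14 and Ndufv2 -0.38 ± 0.18. Their brightest probe sets missed the threshold, while other probe sets of these genes, tested among all probe sets, passed: -1.07 for Ndufab1, and -0.55 and -0.53 for Ndufv2. Ndufs3 (-0.20) and Ndufs8 (-0.13) had smaller values. At the other end stood Ndufb1, an accessory subunit, with 0.36 ± 0.32, and Ndufs4, which lies near the NADH-binding module, with 0.01 ± 0.12. The Ndufb1 probe set had a mean of only 7.93, where the median of the tested complex I genes was 12.48. The accessory subunit Ndufa12 had a large change of -0.72 that did not pass, since its irradiated arrays spread from 11.84 to 12.78.

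Complex II, succinate dehydrogenase, had all 4 genes below 0, against 44.7% of all genes. All 3 irradiated arrays lay below both unirradiated ones in each of them, against 22.8% of all genes. The share called lower was 25%, a single gene, against 8.34% of all genes. Sdhc, a membrane anchor that binds ubiquinone, was the only one to pass: 12.49 and 12.28 without against 11.92, 11.40 and 11.65 with irradiation, a fall of 0.73 ± 0.20 (adjusted p = 0.0262). A dimmer probe set of Sdhc, tested among all probe sets, had -0.28 and did not pass. Sdha, the flavoprotein whose promoter is printed above, had -0.41 ± 0.20. The iron-sulfur subunit Sdhb had -0.31 ± 0.16, and the second anchor Sdhd had -0.37 ± 0.18.

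Complex III, the cytochrome bc1 complex, had the lowest median of the complexes, -0.43. All 8 genes were below 0 and without overlap of the arrays, against 44.7% and 22.8% of all genes. The share called lower was 12.5%, a single gene, against 8.34% of all genes. Uqcrc1, a core protein, was at 12.94 and 12.46 and then at 12.02, 12.05 and 11.95. It fell by 0.69 ± 0.21 (adjusted p = 0.0381). The unirradiated arrays lay far apart here. Uqcrh, the hinge protein, had -0.59 ± 0.27, Uqcr10 -0.57 ± 0.21 and Uqcrfs1, the Rieske iron-sulfur protein, -0.54 ± 0.20. The smallest change was that of Uqcr11, at -0.25 ± 0.16.

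ATP synthase had no call among its 17 genes in wild type, where 8.34% of all genes were lower and 15.8% higher. All 17 had a change below 0 (44.7% of all genes did). The irradiated arrays lay below without overlap for 10 (58.8%, against 22.8% of all genes). Its median was -0.26. Atp5g1, which encodes the ring-forming c subunit, had the lowest value, -0.54 ± 0.19 (adjusted p = 0.0694). Atp5d, the delta subunit of the rotor, had -0.51 ± 0.18, and Atp5a1 and Atp5b, the alpha and beta subunits, had -0.40 ± 0.18 and -0.25 ± 0.13. Atp5g2 and Atp5g3, which encode the same mature c subunit as Atp5g1, had -0.13 and -0.28. The value nearest 0 was that of Atp5j2 (-0.05). A dimmer probe set of Atp5a1, tested among all probe sets, did pass in both genotypes, with -1.09 in wild type and -0.71 in knockout. A further probe set, of Atp5k, passed in wild type (-0.63) and had -0.08 in knockout, where its brightest had -0.35 and -0.06.

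**Figure D2:**
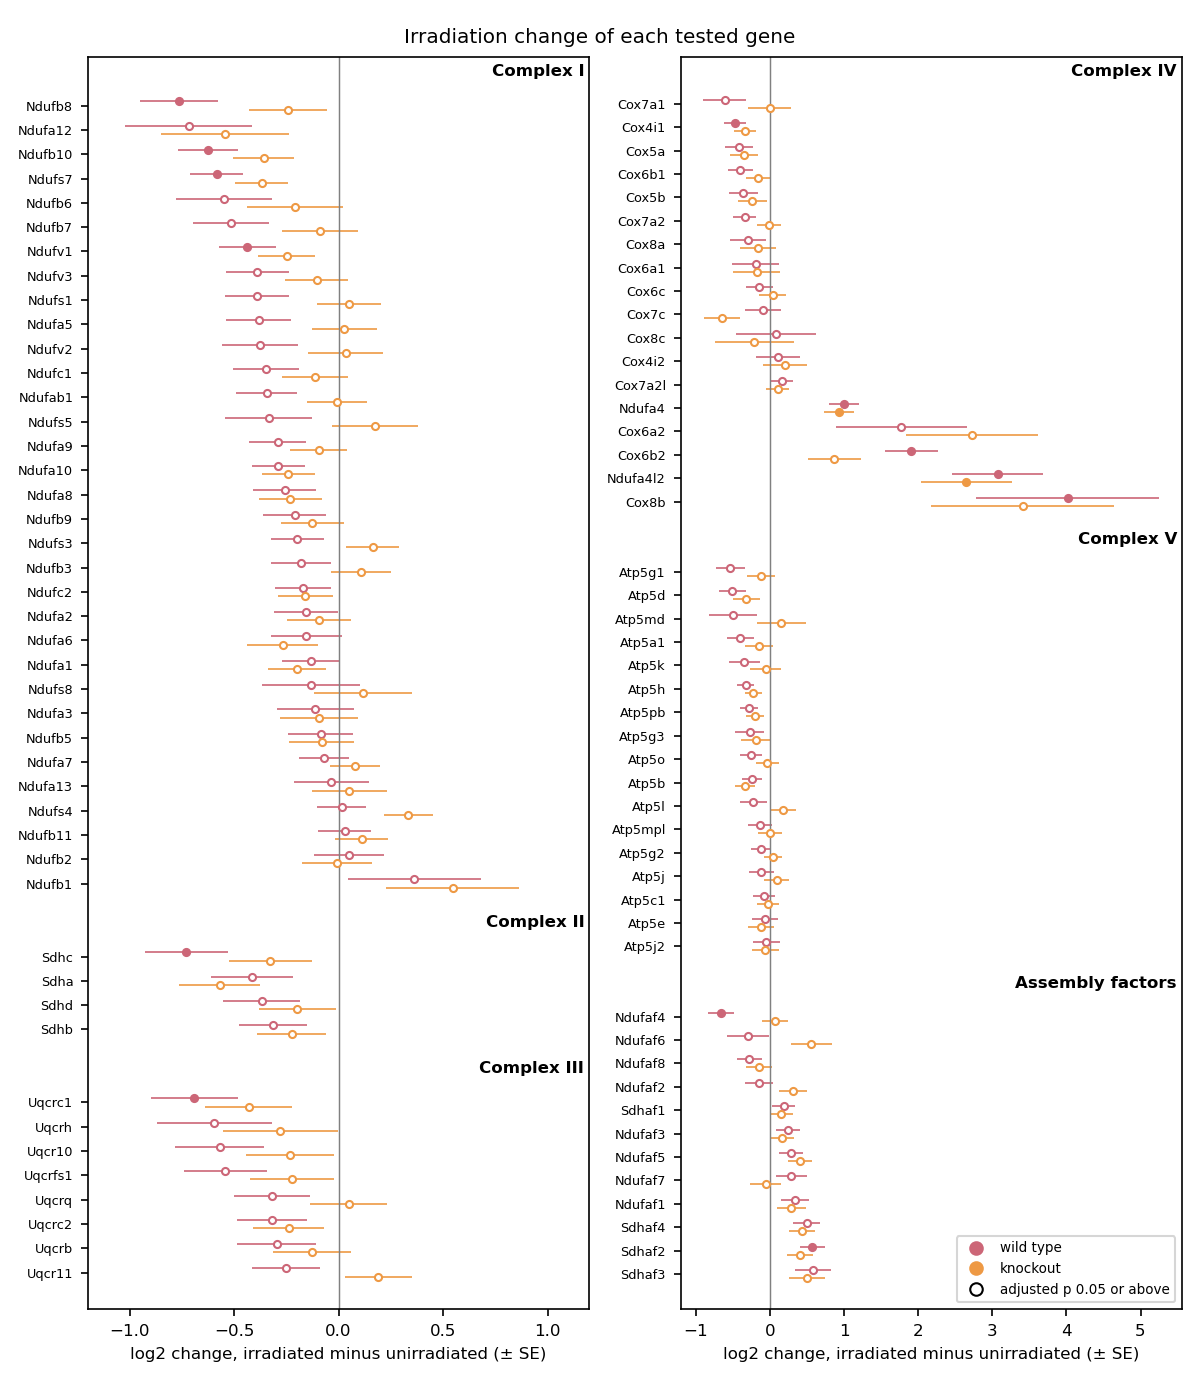
Log2 change with irradiation of each of the 92 tested genes (x axis, irradiated minus unirradiated, ± SE from the fit over all 10 arrays) in wild type (red) and knockout (orange), by complex; the 2 columns have different x axes. Filled points passed an adjusted p of 0.05: 13 in wild type and 2 in knockout, with the largest rises in complex IV.

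Complex IV, cytochrome c oxidase, went both ways. Of 18 tested genes 4 rose (22.2%, against 15.8% of all genes) and 1 fell (5.56%, against 8.34%) in irradiated wild type. Its ubiquitous subunits had changes like those of the other complexes. Cox4i1, the largest nuclear-encoded subunit, was at 14.64 and 14.28 without and at 14.02, 13.99 and 13.95 with irradiation, and fell by 0.47 ± 0.15 with an adjusted p of 0.0495, just inside the threshold. Cox5a (-0.42 ± 0.19), Cox6b1 (-0.40 ± 0.16), Cox5b (-0.36 ± 0.19) and Cox7a2 (-0.34 ± 0.16) did not pass with their brightest probe sets, and another 2 probe sets of Cox5a did, at -0.52 and -0.57. Cox8a (-0.30), Cox6a1 (-0.19) and Cox6c (-0.14) had smaller values, with overlapping arrays. Cox7a2l, a factor of supercomplex assembly, had 0.16 ± 0.15.

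Ndufa4 was the exception among the ubiquitous subunits of the chain. Its signal was 12.52 and 12.37 in unirradiated wild type and 13.16, 13.78 and 13.39 after irradiation. In knockout it was 12.24 and 12.51, and then 13.58, 13.15 and 13.18. Every irradiated array lay above every unirradiated one, with a gap larger than the spread of any group. It rose by 1.00 ± 0.20 in wild type (2.0-fold, adjusted p = 0.00786) and by 0.93 ± 0.20 in knockout (1.91-fold, adjusted p = 0.0108). The changes in the 2 genotypes differed by -0.07, with a 95% interval from -0.71 to 0.57. With the Xist pattern as a covariate the change was 0.58 ± 0.31 (adjusted p = 0.509) in wild type and 0.79 ± 0.20 (adjusted p = 0.0372) in knockout. The wild-type error was wider there, since sex and irradiation cannot be separated in that genotype.

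Ndufa4l2, a paralogue of Ndufa4 known to be induced by hypoxia, rose as well, from a dim start. It was at 4.25 and 4.23 in unirradiated wild type and at 7.76, 7.72 and 6.45 in irradiated wild type, and at 4.24 and 5.55 and then 8.31, 7.08 and 7.25 in knockout. The rise was 3.07 ± 0.61 in wild type (adjusted p = 0.00753) and 2.65 ± 0.61 in knockout (adjusted p = 0.0138). It lay above the array median on only 5 arrays, all irradiated, so it was tested only through the group where it was high. MAS5 also spreads dim signals widely, so the size of this fold (8.41 in wild type) is uncertain. A pseudocount, or leaving out 1 array, kept the sign in every fit run. Of 24 alternatives, 23 gave Ndufa4l2 a value. For a gene tested that way, kept calls are no separate support for its rise. In wild type its call was lost in 1 of 23 alternatives, the Xist covariate, and in knockout it was lost in 3: without replicate 1 of unirradiated knockout, without replicate 1 of irradiated knockout, and with a minimum change of 1.5-fold.

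**Figure D3:**
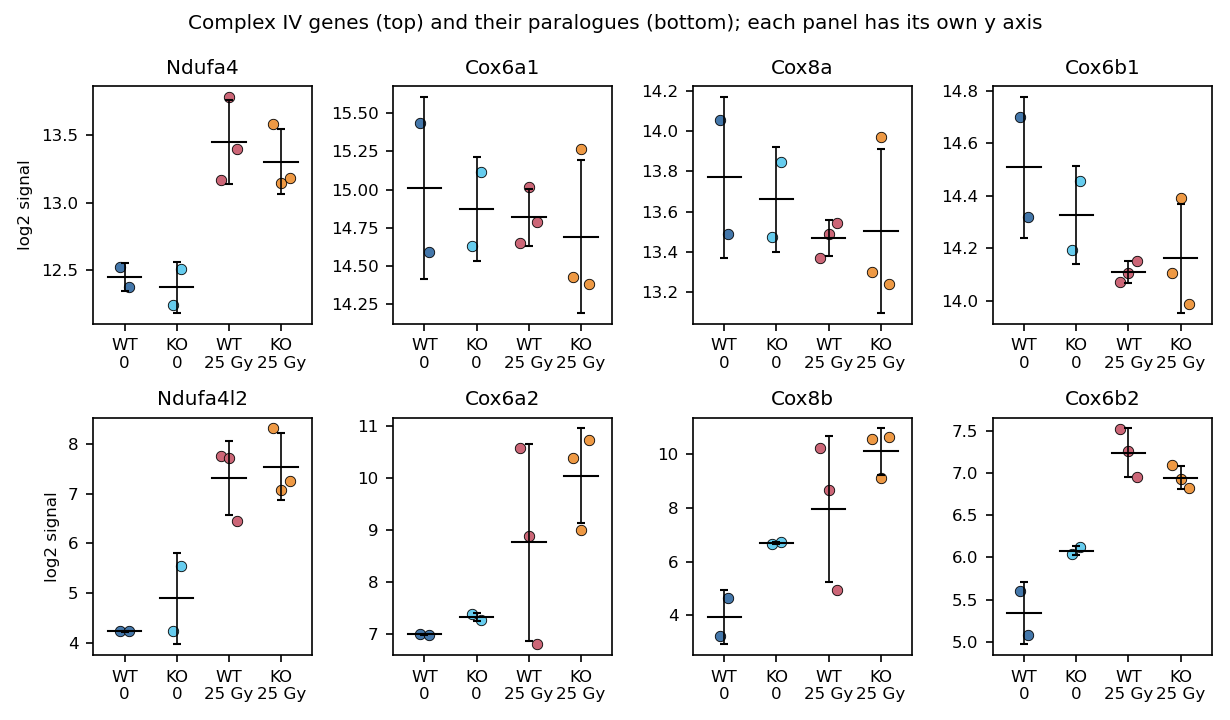
Log2 signal (y axis, scale differs by panel) of 4 complex IV genes (top) and a paralogue of each (bottom) on every array, by genotype and dose. Points are arrays, bars group means and whiskers the SD (n = 2 or 3). Ndufa4, Ndufa4l2 and Cox6b2 have all irradiated points above all unirradiated ones, while Cox6a2 and Cox8b have 1 irradiated wild-type array at 6.80 and 4.95, near the unirradiated arrays.

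The muscle forms of complex IV spread widely between irradiated arrays. Cox8b was at 3.22 and 4.65 in unirradiated wild type and at 10.26, 8.66 and 4.95 after irradiation, and at 6.67 and 6.73 and then 10.58, 9.12 and 10.64 in knockout. It rose in wild type (4.02 ± 1.24, adjusted p = 0.0414), and had 3.41 ± 1.24 in knockout (adjusted p = 0.0726). Cox8b exceeded the array median on 5 arrays, all irradiated, so it was tested only through the group where it was high and the size is uncertain: the wild-type change ran from 2.25 to 5.52 over the settings, and the call was lost with either pseudocount. Cox6a2 was at 7.0 and 6.98 and then 10.59, 8.90 and 6.80 in wild type, and at 7.38 and 7.27 and then 10.39, 9.01 and 10.74 in knockout. It did not pass in either genotype (1.77 ± 0.89, adjusted p = 0.176, and 2.73 ± 0.89, adjusted p = 0.0511). Replicate 3 of irradiated wild type was low for both genes and replicate 2 of each irradiated group was the middle or lowest array. The striated muscle markers were ordered in the same way in wild type: their mean was 11.72, 9.60 and 5.09 on the irradiated arrays 1 to 3, where Cox8b was 10.26, 8.66 and 4.95. Of these 14 markers 6 were higher in irradiated wild type and 2 in irradiated knockout. The part of muscle in these changes was not tested.

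**Figure D4:**
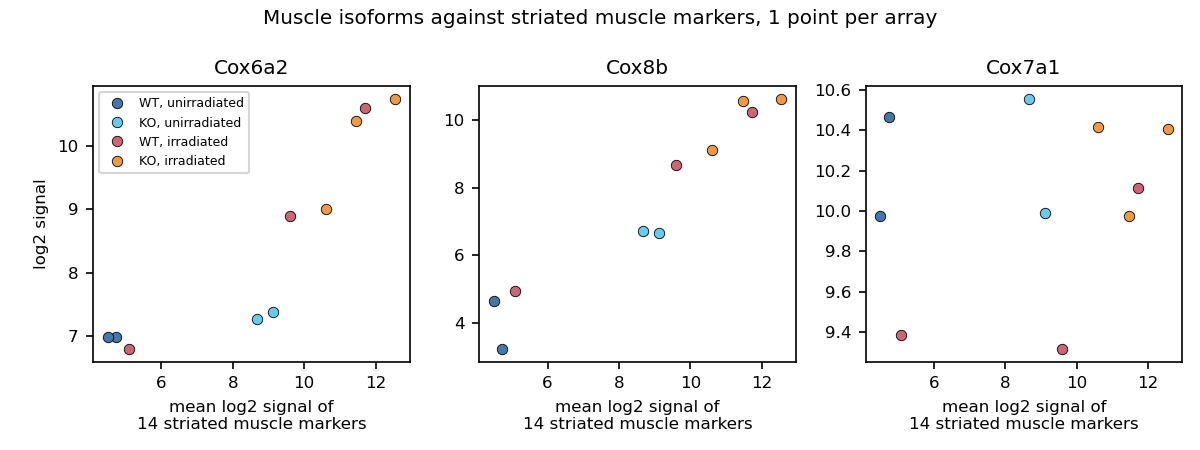
Log2 signal of the muscle isoforms Cox6a2, Cox8b and Cox7a1 (y axis) against the mean log2 signal of 14 striated muscle markers (x axis), 1 point per array, coloured by group. The arrays with the highest marker means, 11.46 to 12.55, have Cox6a2 at 10.39 or above and Cox8b at 10.26 or above, and Cox7a1 shows no such order.

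Not every isoform of muscle or other tissues moved. Cox7a1, another muscle form, was at 10.47 and 9.97 without and at 10.12, 9.31 and 9.39 with irradiation in wild type (-0.61 ± 0.29, adjusted p = 0.148), and had -0.01 ± 0.29 in knockout. Cox6b2, known from testis, rose in wild type, from 5.60 and 5.08 to 7.53, 7.26 and 6.95 (1.91 ± 0.36, adjusted p = 0.00566). It too was tested only through irradiated arrays, 3 of which exceeded the array median, and the change ran from 1.04 to 2.17 over the settings. In knockout it had 0.87 ± 0.36 (adjusted p = 0.107), with 6.04 and 6.12 before and 7.10, 6.93 and 6.82 after. The interaction was not significant (-1.04, 95% interval -2.17 to 0.09). The lung form Cox4i2 (0.10 and 0.20) and the testis form Cox8c (0.08 and -0.21) did not pass in wild type or knockout. This set of isoforms was drawn from textbook knowledge after the values had been seen.

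Assembly factors had changes of both signs. Ndufaf4, which helps build complex I, was at 10.73 and 10.63 in unirradiated and at 10.12, 9.90 and 10.04 in irradiated wild type, and fell by 0.66 ± 0.18 (adjusted p = 0.0239). In knockout it had 0.06 ± 0.18, and of all members its interaction had the smallest p, 0.0161 unadjusted and 0.348 adjusted (0.72, 95% interval 0.17 to 1.27). Sdhaf2, which attaches the flavin to Sdha, was at 9.55 and 9.76 and then 10.05, 10.18 and 10.45, and rose by 0.57 ± 0.17 (adjusted p = 0.0388). In knockout it had 0.40 ± 0.17. Dimmer probe sets of Ndufaf4 (-0.25) and Sdhaf2 (0.40), tested among all probe sets, did not pass in wild type. The median of the 12 was 0.26 in wild type and 0.30 in knockout, and with arrays centred on their medians the wild-type value turned to -0.08 and the knockout value was 0.17. Relative to the median of all genes it was 0.19 in wild type and 0.28 in knockout as deposited, and 0.14 and 0.27 after quantile normalization.

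The second question was what irradiation changed in knockout. Here 2 of 92 members rose (2.17%, background 14%), Ndufa4 and Ndufa4l2, and none fell (background 9.5%), against 23.5% of all genes in either direction. At an unadjusted p under 0.05, 5 members were lower and 9 higher, where 16.8% of all genes were lower and 20.9% higher. The median change was -0.07, against 0.01 over all genes, and it turned to 0.07 without replicate 2 of unirradiated knockout and to 0.017 without replicate 3 of irradiated knockout. All 3 irradiated arrays lay below both unirradiated ones for 11 members (25.6% of all genes did so) and above them for 14 (28.4%). The lowest values were those of Cox7c, a small subunit of complex IV (-0.65 ± 0.24, adjusted p = 0.078), Sdha (-0.57 ± 0.20, adjusted p = 0.0608) and Ndufa12 (-0.54 ± 0.30). The Cox7c probe set had a mean of only 8.96, where the median of the ubiquitous complex IV genes was 14.19. A dimmer probe set of Cox7c had -0.30. Ndufs7 had -0.37 ± 0.13 (adjusted p = 0.0625). Ndufb1, read by the dim probe set given above, had the highest value of complex I (0.55 ± 0.32) and Ndufaf6 that of the assembly factors (0.56 ± 0.28).

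This count depended on single arrays. Without replicate 2 of irradiated knockout, the array with the high subunit and colonocyte levels, 11 members passed, of which 8 fell: Sdha (-0.79, adjusted p = 0.00294), Atp5b, Ndufs7, Uqcrc1, Uqcrc2, Cox5a, Cox7c and Cox4i1. The rises were then Ndufa4, Ndufa4l2 and Cox6a2 (3.25, adjusted p = 0.0288). Since that array stood out by its high subunit levels, lower values without it follow from leaving it out. Down-weighting of variable arrays gave 12 calls, 8 lower and 4 higher. The shares of all genes in these fits are not given here, so the counts only describe how the calls moved. Without replicate 1 of unirradiated knockout none passed. Without replicate 1 of irradiated knockout, its only array with the female Xist pattern, 1 passed.

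Over both genotypes, every irradiated array lay below every unirradiated one for 7 members (10% of all genes did so): Ndufv1, Ndufs7, Ndufb10 and Ndufa12 of complex I, Sdha, and Atp5pb and Atp5h of the stalk of ATP synthase. Every irradiated array lay above for 5 members (15.4% of all genes): Ndufa4, Ndufa4l2, Cox6b2, Sdhaf2 and the complex I assembly factor Ndufaf5. Sdha ran from 12.69 to 12.92 without and from 11.98 to 12.66 with irradiation. Atp5h ran from 13.72 to 13.93 and from 13.37 to 13.65.

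The third question was whether the genotypes differed. Without irradiation no member passed in limma, where 1.23% of all genes did, and none had an unadjusted p under 0.05, while 9.64% of all genes were higher and 6.93% lower at that level. The smallest adjusted p was 0.313. Cox8b had the largest difference, with knockout higher by 2.76 (95% interval -0.27 to 5.79) and no overlap of the arrays, beside the higher striated muscle markers given above. The median half-width of the unadjusted 95% interval of a member was 0.44. Larger differences also went uncalled, such as -0.64 for Ndufaf6 and 0.49 for Ndufaf7, so a missing call does not show equal levels.

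After irradiation no member passed either, and 0% of all genes did. At an unadjusted p under 0.05, 3 members were higher in knockout (Ndufb10, Ndufaf4 and Cox7a1) and none lower, where 2.14% of all genes were higher and 1.84% lower. The differences were small and mostly of 1 sign: the median was 0.11, and 79 of 92 members, among them 32 of 33 of complex I, had a higher mean in knockout, against 50.7% of all genes. Without replicate 2 of irradiated knockout the median was 0.02, with 47 of 92 members and 22 of 33 of complex I higher, and without replicate 3 the median was 0.20. The female Xist pattern was on 3 of 3 arrays of irradiated wild type and 1 of 3 of irradiated knockout, and with it as a covariate the median was 0.08. Ndufb10 was at 12.01, 11.97 and 11.68 in knockout and 11.78, 11.48 and 11.49 in wild type, a difference of 0.30 with a 95% interval from 0.01 to 0.59 and overlapping arrays. Cox7a1 differed by 0.66 (0.09 to 1.23).

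The difference of the irradiation changes between genotypes (the interaction) had no call among the members, where 0.207% of all genes passed, and 1 member, Ndufaf4, was higher at an unadjusted p under 0.05 (4.27% of all genes higher, 6.16% lower). The knockout change lay above the wild-type change for 63 of the 73 ubiquitous subunits, and for 47 without replicate 2 of irradiated knockout. The median interaction over the members was 0.16, and ran from 0.05 to 0.26 over the fits that each left out 1 array (0.06 without that one), with a median half-width of 0.57, so the lower number of calls in knockout was not shown to be a difference between genotypes.

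Genes that work beside the respiratory chain were taken from lists and are given by their counts. These are to be read against the shares of all genes above (8.34% lower and 15.8% higher in wild type, 9.5% and 14% in knockout). No gene of these lists passed in either genotype comparison or in the interaction. Unlike counts or changes in the 2 genotypes were therefore not shown to be a genotype difference. Of 17 tested genes of the TCA cycle and pyruvate entry, 6 fell in wild type (35.3%) and 2 in knockout (11.8%). Cs, citrate synthase, fell by 0.97 ± 0.17 in wild type and by 0.83 ± 0.17 in knockout, and Ogdh, of the oxoglutarate dehydrogenase complex, by 0.95 ± 0.14 and 0.92 ± 0.14. Of 14 electron and nucleotide carriers, 6 fell (42.9%) and 1 rose (7.14%) in wild type. Cycs, cytochrome c itself, fell by 0.60 ± 0.17 in wild type and had -0.085 ± 0.17 in knockout, and Etfb, an electron carrier of fatty acid oxidation, fell by 0.59 ± 0.15. The gene that rose was Slc25a4, the ADP/ATP carrier of heart and muscle, by 1.09 ± 0.26 in wild type and 0.94 ± 0.26 in knockout, the only 1 of this list to pass in knockout.

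Of 15 regulators of mitochondrial biogenesis, 1 fell in wild type (6.67%, below the share of all genes) and 3 in knockout (20%). Esrra, the nuclear receptor ERR alpha, fell by 0.96 ± 0.25 and 0.86 ± 0.25. Ppargc1a, its coactivator PGC-1 alpha, fell by 1.80 ± 0.40 in knockout and had -0.07 ± 0.40 in wild type. Its unirradiated mean was 11.60 in knockout and 9.87 in wild type. Neither this unirradiated difference (1.72, limma adjusted p = 0.0947) nor the interaction (-1.73, adjusted p = 0.327) passed. Esrrg fell by 1.34 ± 0.30 in knockout. Of 39 assembly factors, the 12 above among them, 5 fell (12.8%) and 2 rose (5.13%) in wild type and 2 fell (5.13%) and 3 rose (7.69%) in knockout. Those of complex IV that fell in wild type were Sco1 (-1.13), Cox10 (-0.85), Cox11 (-0.80) and Cox17 (-0.58), which supply its copper and heme. Of 15 genes of the outer membrane and import, Vdac2, a porin, fell in wild type (-0.70), and in knockout Vdac3 fell (-0.60) and Timm23 rose (0.59), each 6.67% of the list. Of 76 mitochondrial ribosomal genes, 2 fell in wild type (2.63%), and 7 rose (9.21%) and 2 fell (2.63%) in knockout, all below the shares of all genes. Mrps6 fell in both (-1.47 and -0.98). Of the uncoupling proteins only Ucp3 was tested, and it did not pass. Ucp1, the defining marker of brown fat, was not above the array median on any array, while Cidea, a lipid droplet protein of fat cells, rose by 5.72 ± 1.32 in wild type and 6.41 ± 1.32 in knockout.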

How the data were processed

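Total RNA of distal colorectum was measured on 10 Affymetrix arrays, grouped by the genotype and irradiation in the labels. The authors made the deposited log2 values with MAS5, the tool named in the submitters' processing notes. No header names the scale; it was read as log2 because, back-transformed to linear signals, every array had a trimmed mean of 500, with 2% left out at each tail. No detection calls were used. Precision is limited by how many arrays there are.

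The values entered the tests with no further normalization. Of 45101 probe sets, 34945 had 1 gene in the platform annotation, and another 10 that name a member together with other genes were left out. The brightest probe set stood for each of 18193 genes, and 12568 were tested, those that exceeded an array's median on 2 arrays or more. The linear model in limma 3.58.1 (R 4.3.3) held the 4 group means and used all 10 arrays, which left 6 degrees of freedom; the prior variance followed the mean level, and p-values were adjusted by Benjamini-Hochberg over all tested genes, with a threshold of 0.05. On simulated arrays of 12568 genes the fit called 36% of genes changed by 1 log2 unit and 80% of those changed by 2 for irradiation in wild type, with 3 false calls, and 40% and 72% for irradiation in knockout. At 0.5 log2 units it called 2% in either comparison. Only 50 genes were changed at each size, while 24.1% and 23.5% of genes were called in the data. The adjusted threshold is less strict where more genes change, so these shares are not the power of the fits above.

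The members and lists were chosen with earlier results of these data known. Named were core subunits and tissue isoforms, members past the threshold (at most 4 per complex, direction and comparison), the largest rise and fall of each complex, and up to 3 genes of each pathway list past it by smallest p. A few other genes are named to account for a count. Alternatives were other normalizations, pseudocounts, filters, probe set rules, variance settings, array weights, fits of only the groups compared, a minimum change, the replicate number as a block, the Xist pattern as a covariate, and leaving out each array; where 1 array of a group remained, its spread was taken from the other groups. Where genes of the lists share probe sequences with relatives, signals cannot be told apart.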

Additional observations from a re-analysis of the deposited data

How the results depend on the processing

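Member counts with irradiation moved with the setting. In wild type, 13 members passed as reported, 28 with arrays centred on their medians, 8 without a variance trend, 7 with the replicate block, 2 with a minimum change of 1.5-fold and 0 with the Xist pattern as a covariate, where 16 of all genes passed. In knockout, 2 passed as reported, 6 after quantile normalization, 1 with a filter on the mean, 12 with array weights, 4 with only the groups compared and 0 with the minimum change. Leaving out 1 array gave 3 to 18 members in wild type and 0 to 11 in knockout. The cause of these shifts was not tested. The minimum change asks for more by its construction. With the Xist covariate the wild-type comparison cannot separate sex from irradiation, so calls lost there decide nothing. Counts for the genotype comparisons and the interaction were 0 in every setting that gave a value; fits of only the groups compared give none for the interaction. Deviations of same-numbered samples from their group means had r from -0.202 to 0.156 over 13 pairs. In a group of 2 arrays these deviations mirror each other, so the values cannot decide whether the numbers pair the samples. No named gene past the threshold changed sign.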

Other observations

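Dimmer probe sets of some members gave values that their brightest ones did not, when all 25883 probe sets that exceeded an array's median on 2 arrays or more were tested together. Of 170 member probe sets tested, 14 fell and 5 rose in irradiated wild type, and 5 fell and 2 rose in irradiated knockout. In either direction these are 11.2% and 4.12% of the member probe sets, against 18.8% and 19.9% of all probe sets tested. No gene had called probe sets of opposite sign within a genotype. A dim probe set of Sdha had -1.46 in knockout and -0.27 in wild type, where the bright one had -0.57 and -0.41. A dim probe set of Atp5c1, the gamma subunit of ATP synthase, had -1.01 in knockout, and the bright one -0.03. For Uqcrc2, a core protein of complex III, a second probe set fell by 0.52 in wild type and by 0.53 in knockout, where the brightest had -0.32 and -0.24. Which transcripts these probe sets read was not tested.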
